A study of Mus musculus with 8 samples.

Results

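The MYC, MAX and MXD network is a set of transcription factors that share a basic helix-loop-helix leucine zipper. Most of them compete for one partner, MAX, itself a member, while MLX is a MAX-like partner. All 10 genes of the network searched for by symbol (Myc, Mycn, Max, Mxd1, Mxd3, Mxd4, Mxi1, Mnt, Mlx and Mga) were among the 11854 named entries of the deposited table. They were compared between haematopoietic stem cells (HSCs) of Nupr1-/- mice and of wild type (WT) mice, 4 libraries each. None of the 10 differed past the threshold, and the text below gives their levels, the spread between libraries and the sizes of difference that this spread leaves possible.

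The cells were sorted from bone marrow nucleated cells of mice kept on a C57BL/6J background (strain label C57BL/6). One group was 4 mice labelled Nupr1-/- and the other 4 WT mice, and each mouse gave 1 library of polyadenylated RNA. Age, sex, the surface markers of the sort and the deleted part of Nupr1 are not given in the sources used here. Nupr1 itself is a small stress-induced chromatin protein, and the series title links it to HSC quiescence and p53 signalling.

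MYC and MYCN bind the E-box CACGTG as dimers with MAX and raise transcription, above all of genes for ribosome production, nucleotide synthesis and growth. MXD1, MXD3, MXD4, MXI1 and MNT bind the same sites with MAX and recruit the SIN3 histone deacetylase corepressor, so they oppose MYC. MLX is a MAX-like partner that takes up some MXD proteins, MNT and the glucose-sensing Mondo factors, and MGA joins MAX to a variant Polycomb complex. In mouse HSCs, Myc and Mycn are known to act redundantly in survival, and Myc is known for its part in the balance between self-renewal and differentiation.

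Because these proteins all read the E-box, the promoters of the network genes were searched for the 6 letters CACGTG, which read the same on both strands. RefSeq promoter windows (GRCm38.p6, 250 bases before to 50 after each transcription start) were found for 9 of the 10 genes, all but Myc. The motif lay in the windows of Max, Mxd4, Mnt and Mlx, 4 of 9 genes. The share was 8.09% of all 27025 genes with RefSeq windows, whether or not they were tested here. The stretches are shown 5′ to 3′ on the gene's strand, with the E-box in capitals.
Max: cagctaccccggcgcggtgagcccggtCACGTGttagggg
Mxd4: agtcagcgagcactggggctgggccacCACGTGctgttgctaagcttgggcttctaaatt
Mnt: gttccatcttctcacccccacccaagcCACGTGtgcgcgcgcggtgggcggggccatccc
Mlx: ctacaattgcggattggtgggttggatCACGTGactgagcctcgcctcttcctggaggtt
They lie at chr12:76962239-76962278 (minus strand) for Max, chr5:34187897-34187956 (minus) for Mxd4, chr11:74830774-74830833 (plus) for Mnt and chr11:101087223-101087282 (plus) for Mlx. Counting the base before the start as -1, the E-box began at -3 in Max, -219 in Mxd4, -123 in Mnt and -40 in Mlx. The windows of Mycn, Mxd1, Mxd3, Mxi1 and Mga did not hold these letters. A match in sequence is a description and does not show that a factor was bound.

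The libraries held 2296101 to 3959564 reads in those labelled Nupr1-/- and 3340217 to 4769401 in WT. All 15 HSC markers searched for were read in all 8 libraries, the lowest value being 10.8 normalised reads for Hoxb5. Of markers of other blood cells, 9 of 10 neutrophil, 6 of 9 B cell and 7 of 10 T and NK cell genes were not in the table. Summed megakaryocyte and platelet markers ran from 2108 to 2623 normalised reads in libraries labelled Nupr1-/- and from 889 to 1290 in WT, and 4 of the 9 tested (Itga2b, Gp9, Vwf and Pf4) were called higher, against 1.68% of all genes. With a fitted trend over GC content and transcript length taken out (the GC trend), 0 of the 9 were called and their median log2 difference was 1.93, against 2.14 before. Summed erythroid markers ran from 4177 to 6112 in libraries labelled Nupr1-/- and from 2275 to 4671 in WT. Of the 4 tested, 1 was called higher, and 0 were called with the GC trend removed. Before adjustment 3 of the 4 had a limma p under 0.05, against 19.7% of all genes, and their median log2 difference was 1.25. Summed B cell markers ran from 213 to 379.9 in libraries labelled Nupr1-/- and from 290.4 to 7634 in WT. Neither of the 2 tested was called, both had an unadjusted limma p under 0.05, and their median log2 difference was -3.35. The neutrophil marker present, Prtn3, ran from 847 to 1445 in libraries labelled Nupr1-/- and from 983 to 2908 in WT (not called, though its unadjusted limma p was under 0.05). The 4 monocyte and macrophage markers in the table, of 9, summed to 1440 to 2620 in libraries labelled Nupr1-/- and to 1638 to 3181 in WT, with none called. Nupr1 read 179, 173, 201 and 119 in libraries labelled Nupr1-/- and 285, 134, 245 and 318 in WT, so it did not separate the groups and the libraries are named by their labels. Trp53, which encodes p53, averaged 99.4 ± 28.2 against 548 ± 75.0 in WT (SD, n = 4 each; limma adjusted p = 0.00155). WT library 2 stood apart on the first principal component (25.6% of the variance). Transcript GC content moved with the groups, with correlations across genes between GC and a library's deviation of 0.150 to 0.301 in libraries labelled Nupr1-/- and -0.303 to -0.138 in WT. How far these differences enter the values below was not tested, beyond the comparisons without WT library 2 and with the GC trend removed. In bulk RNA, fewer cells of a type and less RNA per cell cannot be told apart.

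Myc, the founding member of the family, showed no difference past the threshold. Its normalised reads (reads divided by 1 size factor per library) were 483, 325, 391 and 350.0 in libraries 1 to 4 labelled Nupr1-/-, against 224, 548, 524 and 329 in WT. The libraries labelled Nupr1-/- all lay inside the WT range, which runs from WT library 1 at the bottom to WT library 2 at the top. The means were 387 ± 69.1 and 406 ± 156 (SD, n = 4 each). The log2 difference, Nupr1-/- minus WT on the log2(value + 1) scale, was 0.0058 ± 0.29 (SE; limma adjusted p = 0.994). Its unadjusted 95% confidence interval of -0.60 to 0.61 reaches from 0.659 to 1.53 times the WT level, so these 8 mice leave room for changes of that size. Myc lies on chromosome 15 (mm10, 61985391 to 61990374, plus strand) and shares no exon bases with a neighbour.

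Mycn, the N-MYC gene, was the most abundant of the 10 and was lower on average in libraries labelled Nupr1-/-, without passing the test. It had 749.6, 579, 721 and 717 normalised reads in libraries 1 to 4 labelled Nupr1-/-, against 1418, 899.7, 705 and 845 in WT. Library 2 labelled Nupr1-/- lay below all WT libraries, while the other 3 lay above WT library 3. The means were 691 ± 76.7 and 967 ± 312 (SD, n = 4 each), a log2 difference of -0.44 ± 0.22 (SE; limma adjusted p = 0.278, unadjusted p = 0.0608). The interval ran from -0.90 to 0.022. Without WT library 1, the highest, the log2 difference was -0.24 (limma adjusted p = 0.584). With the GC trend removed it was -0.79 (limma unadjusted p = 0.00278, adjusted p = 0.150). Mycn lies on chromosome 12 (12936093 to 12941914, minus strand), likewise sharing no exon bases.

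Max, the partner that MYC and MXD proteins need to bind DNA, had 244, 209, 415 and 239 normalised reads in libraries labelled Nupr1-/-, against 595, 217, 352 and 278 in WT. The groups overlapped, with library 3 labelled Nupr1-/- second to WT library 1 over all 8. The log2 difference was -0.33 ± 0.32 (SE; interval -1.01 to 0.35; limma adjusted p = 0.609). It was -0.054 without WT library 1 and -0.54 without library 3 labelled Nupr1-/-. Max lies on chromosome 12 (76937269 to 76962201, minus strand).

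**Figure D1:**
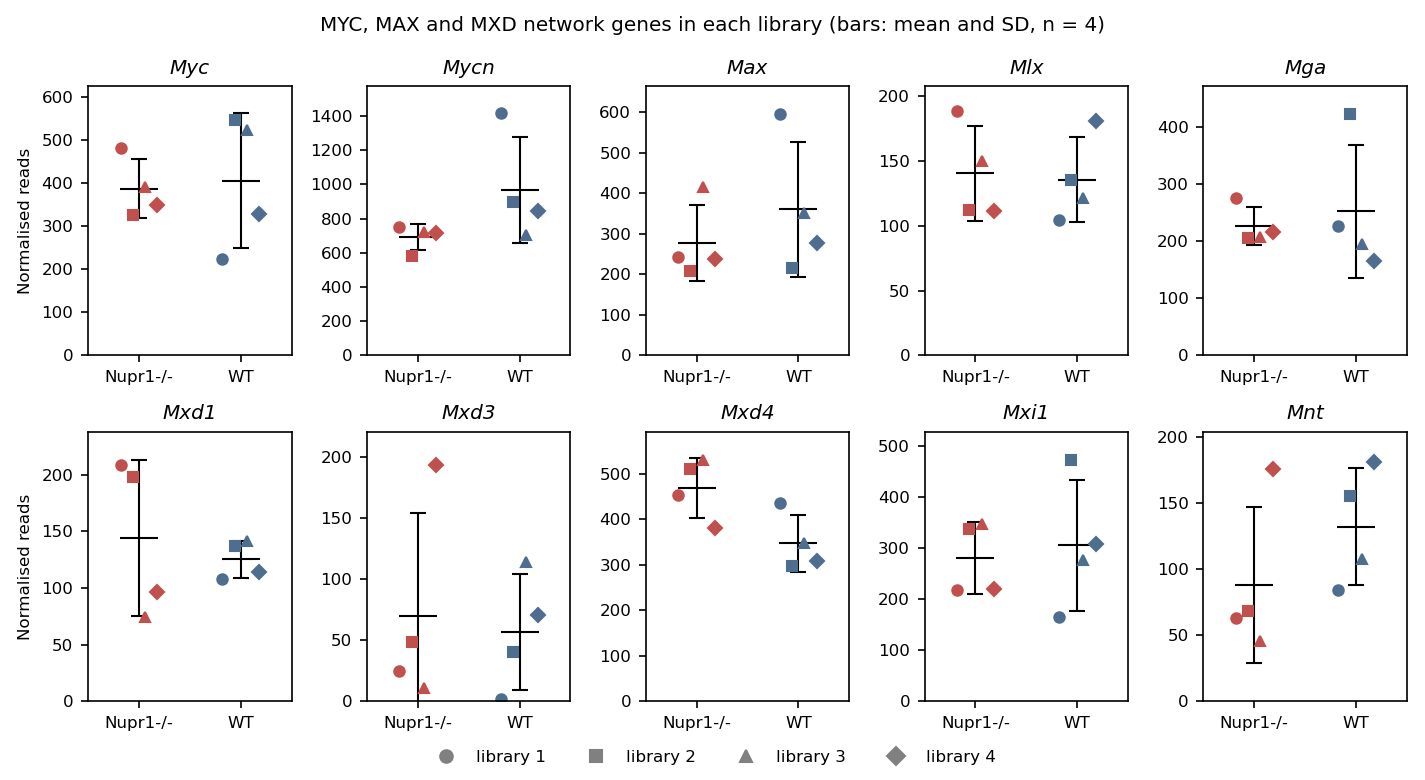
Normalised reads of the 10 network genes in each library, with libraries labelled Nupr1-/- on the left and WT on the right of each panel, marker shapes for libraries 1 to 4, and bars for the mean and SD (n = 4). The groups overlap in all 10 panels, and WT library 1 is lowest for Myc, Mxd3, Mxi1 and Mlx and highest for Mycn and Max.

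Among the antagonists, Mxd4, an MXD gene of resting and differentiated cells, was the one with the higher average in libraries labelled Nupr1-/- and a narrow spread. It had 452, 510.0, 530.1 and 381 normalised reads in libraries labelled Nupr1-/-, against 434, 297, 348 and 308 in WT. Libraries 1 to 3 labelled Nupr1-/- lay above all 4 WT libraries, and library 4 lay below WT library 1. The means were 468 ± 66.7 and 347 ± 62.6 (SD, n = 4 each), a log2 difference of 0.44 ± 0.24 (SE; limma adjusted p = 0.315; exact permutation p = 0.0571, two-sided, where 0.0286 is the smallest that 70 assignments allow). The interval ran from -0.058 to 0.93. This exact p was the lowest of the network genes, while by limma Mycn had the lower unadjusted p (0.0608, against 0.0802 for Mxd4). The same permutation test gave 0.114 for Mycn, 0.171 for Mnt and higher values for the others. With the GC trend removed, the log2 difference of Mxd4 shrank to 0.303 (limma adjusted p = 0.643). Of the exons of Mxd4 (chromosome 5, 34173883 to 34187720, minus strand), 514 bases overlap the antisense gene Gm42846, and the library kit does not mark strand.

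Mnt, the broadly expressed antagonist that also pairs with MLX, leaned the other way. It had 62.7, 68.6, 45.9 and 176 normalised reads in libraries labelled Nupr1-/-, against 84.3, 156, 108 and 181 in WT. Libraries 1 to 3 labelled Nupr1-/- lay below all WT libraries and library 4 was close to the top of the WT range. The log2 difference was -0.71 ± 0.47 (SE; interval -1.70 to 0.28; limma adjusted p = 0.427). It was -1.11 without library 4 labelled Nupr1-/- (adjusted p = 0.244) and -1.27 with the GC trend removed (unadjusted p = 0.0163, adjusted p = 0.280). Mnt is the most GC-rich of the 10 (59.5% of its longest transcript) and lies on chromosome 11 (74830920 to 74845725, plus strand).

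Mxi1, the MXD gene also known as Mxd2, had 219, 337, 347 and 220.4 normalised reads in libraries labelled Nupr1-/-, against 164, 473, 276 and 308 in WT. All 4 libraries labelled Nupr1-/- lay inside the WT range (log2 difference -0.057 ± 0.32, SE; limma adjusted p = 0.946), and 194 of its exon bases are shared with Gm10197 on the other strand. Mxd1, an antagonist induced as blood cells differentiate, had 209, 198, 74.2 and 96.3 in libraries labelled Nupr1-/-, against 108, 137, 142 and 114 in WT. Here the WT libraries lay inside the range of those labelled Nupr1-/-, which fell into a higher pair (libraries 1 and 2) and a lower pair (3 and 4). The log2 difference of Mxd1 was 0.077 ± 0.41 (SE; limma adjusted p = 0.942).

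Mxd3, an antagonist of cycling cells, was the least certain of the 10. It had 24.8, 48.6, 10.6 and 194 normalised reads in libraries labelled Nupr1-/-, against 2.09, 40.4, 114 and 70.3 in WT. These values rest on 17, 39, 12 and 209 reads and on 3, 41, 114 and 93 reads. The SD was 121% of the mean in libraries labelled Nupr1-/- and 83.3% in WT, while counting error at the mean depth would give 12.0% and 12.6%. The log2 difference of 0.37 ± 1.06 (SE; limma adjusted p = 0.883) has an interval of -1.87 to 2.60, and it was -0.76 without WT library 1 and 0.98 without WT library 3. Mxd3 shares 105 exon bases with Prelid1.

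Mlx, the MAX-like partner, had 188, 112, 150.2 and 111 normalised reads in libraries labelled Nupr1-/-, against 104, 135, 122 and 181 in WT. The ranges were nearly the same (log2 difference 0.046 ± 0.36, SE; limma adjusted p = 0.960). Its exons share 385 bases with Psmc3ip on the other strand, where reads cannot be assigned. Mga, the largest gene of the network, had 276, 206, 207 and 217 in libraries labelled Nupr1-/-, against 226, 423, 194 and 166 in WT. WT library 2 alone lay above 276, and the other 7 libraries spanned 166 to 276 (log2 difference -0.069 ± 0.32, SE; limma adjusted p = 0.932).

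Of the network as a whole, 0 of the 10 genes were called at a limma adjusted p under 0.05, where 3.80% of all 10989 tested genes were called. The edgeR, DESeq2 and limma-voom tests also called 0 of them, and 0 of 10 had an unadjusted limma p under 0.05, against 19.7% of all genes. The groups overlapped for all 10, where 11.7% of all genes had no overlap. Of the 10, 5 lay above 0 and their median log2 difference was -0.026, against 0.025 over all tested genes. A missed threshold does not show equal levels. The narrowest intervals were those of Mycn and Mxd4, and the one of Mxd3 was the widest.

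**Figure D2:**
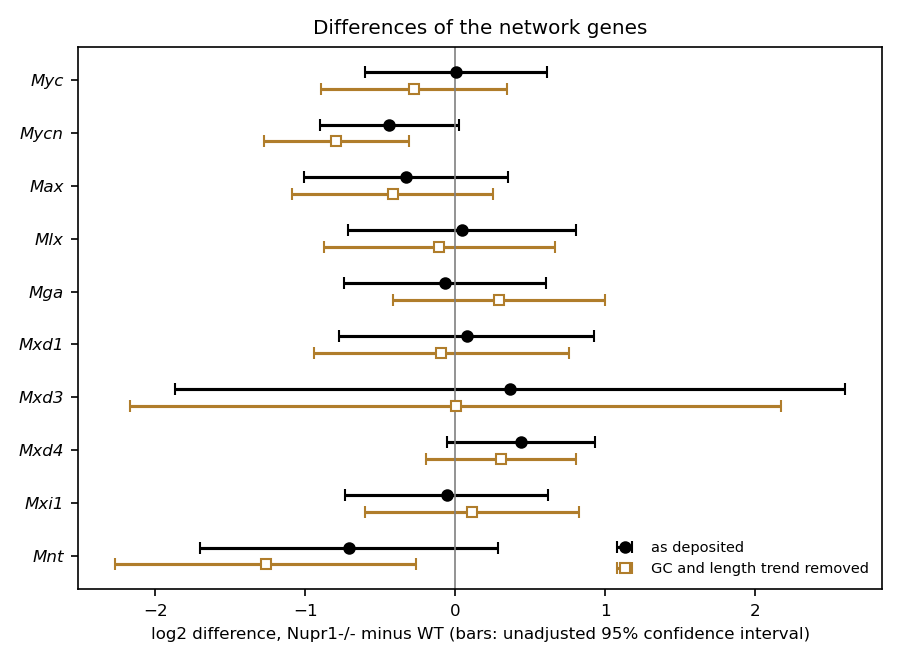
Log2 difference, Nupr1-/- minus WT, of each network gene with its unadjusted 95% confidence interval, for the deposited values (filled circles) and after removal of the GC trend (open squares). All 10 intervals of the deposited values include 0, and after the removal those of Mycn and Mnt do not, at limma adjusted p of 0.150 and 0.280. The share of all genes with such an interval after the removal was not computed. After it, 0 of the 10 were called, where 28 of all 10890 genes in that fit were.

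The spread between libraries, 1 per mouse, can be set beside the counting error at each depth, as a description. Differences between mice and between library preparations cannot be told apart in it. In WT the SD of Myc was 38.5% of its mean, where counting at its read depth would give 4.67%, and the SD of Mycn was 32.2% against 2.89%. In libraries labelled Nupr1-/- the same shares were 17.9% against 5.32% for Myc and 11.1% against 3.95% for Mycn. In WT library 1 Myc was lowest and Mycn highest of all 8.

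Per kilobase of the longest annotated transcript, Mycn stood first with a mean of 310.1 normalised reads per kb over the 8 libraries, above 93.1% of the tested genes with a known length. Myc followed at 169.7 and Max at 164, then Mxd4 at 88.1, Mlx at 70.2, Mxi1 at 58.2, Mxd3 at 36.2, Mxd1 at 28.9, Mnt at 24.0 and Mga at 17.2. Mycn was above Myc in 8 of 8 libraries. Myc was above Max in only 5, Mxd3 above Mxd1 in 3 and Mxd1 above Mnt in 5, so the order of these neighbours does not hold beyond the spread. Max was above Mxd4 in 7 of 8 libraries. Each other neighbour in the order was above the next in 6. With the union of all exons as the length, Mlx moved above Mxd4 and Mnt above Mxd1, and the first 3 places stayed.

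**Figure D3:**
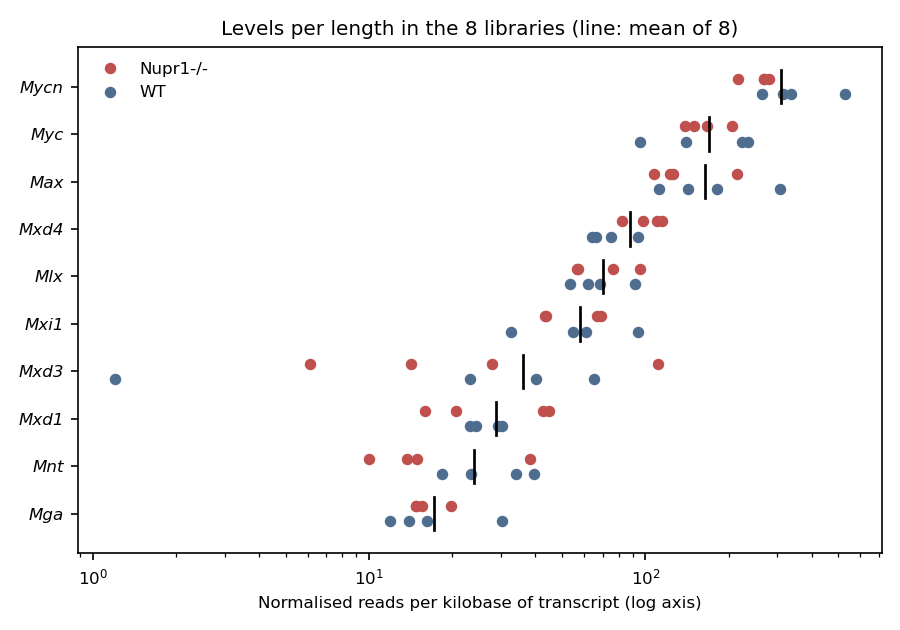
Normalised reads per kilobase of transcript (log axis) of the 10 network genes in each library, libraries labelled Nupr1-/- above WT in each row, with the mean of 8 as a line. Mycn, Myc and Max lie highest, and Mxd3 spans 1.20 to 111.

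The balance between the MYC genes can be read from the same scale. The ratio of Mycn to Myc per kb was 1.36, 1.55, 1.61 and 1.79 in libraries 1 to 4 labelled Nupr1-/-, against 5.55, 1.44, 1.18 and 2.25 in WT. It was tight in libraries labelled Nupr1-/- and wide in WT, with WT library 1 far above the rest and WT library 3 lowest. The sum of Myc and Mycn was 487, 356, 437 and 418 normalised reads per kb in libraries labelled Nupr1-/-, against 626, 571, 488 and 457 in WT. The groups overlapped in that library 1 labelled Nupr1-/- lay above WT library 4. The 5 antagonists that pair with MAX summed to 214, 262, 216 and 296 in libraries labelled Nupr1-/-, against 169, 244, 249 and 232 in WT, so the MYC genes exceeded them in all 8. The share of Mxd4 in that sum was 45.7%, 42.0%, 53.2% and 27.8% in libraries labelled Nupr1-/-, against 55.5%, 26.2%, 30.2% and 28.7% in WT. These sums were formed after the values were seen and are given with no test.

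**Figure D4:**
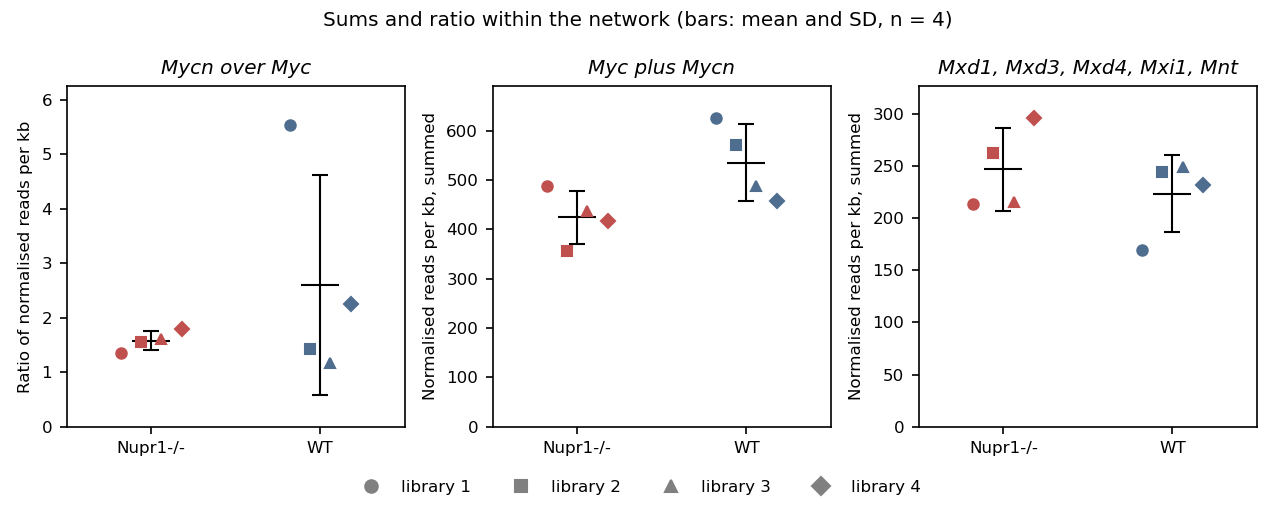
Ratio of Mycn to Myc, sum of Myc and Mycn, and sum of Mxd1, Mxd3, Mxd4, Mxi1 and Mnt, all from normalised reads per kilobase, in libraries labelled Nupr1-/- (left) and WT (right), with mean and SD (n = 4). The ratio of 5.55 in WT library 1 stands out, and the groups overlap in all 3 panels.

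The 3 genes whose log2 values followed Myc most closely over the 8 libraries, out of 10988 compared, were Ttll5, a tubulin glutamylase (r = 0.972), H3f3a, which encodes histone H3.3 (r = 0.963), and Acsl4, a fatty acid CoA ligase (r = 0.935). H3f3a, the most abundant of them, had 6645, 5352, 6131 and 5734 normalised reads in libraries labelled Nupr1-/-, against 3728, 6833, 7195 and 5573 in WT. Like Myc, it was lowest in WT library 1 and high in WT libraries 2 and 3. With 8 points that share depth and size factors, picked as the highest of many, these correlations describe the libraries and nothing more.

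Around the network, 7 of 135 tested genes in 7 lists of partners, regulators and targets were called, 5.19% against 3.80% of all genes. Of these, 3 were higher in libraries labelled Nupr1-/- (1.68% of all genes) and 4 lower (2.12%). Without WT library 2 the count was 17, and without each of the other libraries it was 1 to 4. With the GC trend removed it was 2, Pim1 and Itga6.

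Of 8 tested relatives with the same DNA-binding fold, Usf1 fell and 7 did not pass, where 3.80% of all genes were called. Usf1, a ubiquitous factor that binds the same CACGTG E-box, had 2.92, 21.2, 0 and 19.4 normalised reads in libraries labelled Nupr1-/-, against 57.1, 124, 66.8 and 150.4 in WT. The groups did not overlap, and the reads behind the values were 2, 17, 0 and 21 against 82, 126, 67 and 199. The log2 difference was -3.84 ± 0.996 (SE; limma adjusted p = 0.0396), and its size depends on the added value, being -2.47 with 10 in place of 1. Usf1 missed the threshold with edgeR (adjusted p = 0.0714), with the GC trend removed (0.0736), and without each single library except library 4 labelled Nupr1-/- and WT library 2 (up to 0.119, without WT library 4). Its exons share 200 bases with Tstd1. Srebf1, a regulator of lipid synthesis, averaged 396 ± 43.2 in libraries labelled Nupr1-/- and 288 ± 109 in WT (SD, n = 4 each; limma adjusted p = 0.313). Mycl and Mlxipl were not in the table.

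Of 16 cofactors of MYC, Ruvbl2 rose and 15 did not pass, where 3.80% of all genes were called. Of the 16, 14 lay above 0, against 51.3% of all genes. The median log2 difference was 0.42, against 0.025 over all genes, and 6 of 16 had an unadjusted limma p under 0.05, against 19.7% of all genes. Ruvbl2, an ATPase of chromatin remodelling and acetylation complexes that MYC recruits, had 814, 880.3, 1147 and 976 normalised reads in libraries labelled Nupr1-/-, against 579, 539, 511 and 445 in WT. All 4 libraries labelled Nupr1-/- lay above all WT libraries (log2 difference 0.87 ± 0.20, SE; limma adjusted p = 0.0236). Ruvbl2 shares 448 exon bases with Gys1 and Lhb on the other strand. Kat2a, the acetyltransferase GCN5, averaged 614 ± 54.5 and 388 ± 166 in WT (SD, n = 4 each; adjusted p = 0.139). The median GC content of the cofactors was 53.1%, against 49.5% for all tested genes, and with the GC trend removed their median was 0.20 and that of Ruvbl2 0.42 (adjusted p = 0.430). Ruvbl2 also missed the threshold without any single library other than WT library 1 or 2 (up to 0.0794, without library 3 labelled Nupr1-/-).

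Of 15 genes of the SIN3 complex and its partners, which MXD proteins and MNT recruit, 0 passed in limma, against 3.80% of all genes. Of the 15, 3 had an unadjusted limma p under 0.05, against 19.7% of all genes, and 2 lay above 0, against 51.3% of all genes. Their median log2 difference was -0.32 (-0.44 with the GC trend removed). Rbbp4, a histone-binding subunit, had 117, 96.0, 129 and 151 normalised reads in libraries labelled Nupr1-/-, against 249, 247, 241 and 266 in WT. The groups lay well apart, but the log2 difference of -1.04 ± 0.31 (SE) had a limma adjusted p of 0.0685. Rbbp4 shares 1578 exon bases with Gm26722 and Sync. Ing2, a reader of methylated histone H3, averaged 155 ± 45.2 and 318 ± 80.3 in WT (SD, n = 4 each; adjusted p = 0.0842). DESeq2 and limma-voom each called both. Over the 19 alternatives Rbbp4 passed in 2 and Ing2 in 3. Both missed the threshold with the GC trend removed (limma adjusted p = 0.302 for Rbbp4 and 0.209 for Ing2). Of the 9 partners of MGA in its Polycomb complex, 0 passed in limma, against 3.80% of all genes. Before adjustment 3 had a limma p below 0.05, against 19.7% of all genes. Also 3 lay above 0, against 51.3% of all genes, with a median of -0.10. Yaf2, which links the complex to its RING ligase, averaged 97.4 ± 47.9 and 246 ± 63.8 in WT (limma adjusted p = 0.0580). Yaf2 passed with an added value of 5 (limma adjusted p = 0.0483) or 10 (0.0425) in place of 1, and with DESeq2 (0.0283). These were the only 3 of the 19 alternatives in which Yaf2 passed. Its limma adjusted p was 0.193 with the GC trend removed. E2f6 averaged 228 ± 95.7 and 379.9 ± 70.5 in WT (limma adjusted p = 0.155).

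Of 21 genes that act on MYC from outside the network, Pim1 fell and 20 did not pass, where 3.80% of all genes were called. Before adjustment 3 had a limma p under 0.05, against 19.7% of all genes, and 10 lay above 0, against 51.3%. Their median log2 difference was -0.024, against 0.025 over all genes. Pim1, a kinase known to stabilise MYC, had 146, 93.5, 159 and 179 normalised reads in libraries labelled Nupr1-/-, against 1558, 393, 508 and 897 in WT. The groups did not overlap (log2 difference -2.37 ± 0.36, SE; limma adjusted p = 0.00514), and Pim1 passed in every alternative run. Of its exons, 488 bases overlap the antisense gene Gm26885, where reads cannot be assigned without strand. Trpc4ap, part of a ubiquitin ligase for MYC, averaged 717 ± 147 and 434 ± 153 in WT (SD, n = 4 each; adjusted p = 0.118).

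Genes that MYC is known to activate were called in both directions. Of 50 tested, 2 rose, 1 fell and 47 did not pass, where 3.80% of all genes were called. Of the 50, 18 had a limma p below 0.05 before adjustment, against 19.7% of all genes, and 32 lay above 0, against 51.3%. The median log2 difference was 0.13, against 0.025 over all genes. Nop56, a core protein of the small nucleolar particles that modify ribosomal RNA, had 983, 915, 742 and 968 normalised reads in libraries labelled Nupr1-/-, against 438, 638, 469 and 296 in WT (log2 difference 1.01 ± 0.24, SE; limma adjusted p = 0.0257). Mybbp1a, a nucleolar protein of ribosome production that also binds p53, averaged 406 ± 101 and 199 ± 23.5 in WT (log2 difference 0.996 ± 0.27, SE; adjusted p = 0.0494). Hk2, the hexokinase that starts glycolysis, went the other way, with 89.0, 89.8, 88.4 and 102 normalised reads in libraries labelled Nupr1-/-, against 373, 138, 258 and 324 in WT (log2 difference -1.47 ± 0.36, SE; adjusted p = 0.0341). For all 3 the groups did not overlap, which held for 9 of the 50, against 11.7% of all genes. Genes of low limma p tend to separate, so this adds no further support. Each missed the threshold with the GC trend removed, at 0.91 for Nop56 (adjusted p = 0.126), 0.66 for Mybbp1a (0.325) and -1.68 for Hk2 (0.0526). With WT library 2 also left out, Nop56 (adjusted p = 0.0106) and Hk2 (0.00366) passed and Mybbp1a (0.161) did not. Leaving out 1 library, Hk2 passed only without WT library 2, and Nop56 and Mybbp1a only without that library or library 3 labelled Nupr1-/- (highest adjusted p 0.107 for Hk2 without WT library 1, and 0.0854 and 0.187 for Nop56 and Mybbp1a without library 1 labelled Nupr1-/-). Mybbp1a also missed it with the replicate number as a block (adjusted p = 0.0759) and with no filter on low values (0.0560). Annotated small nucleolar RNAs inside Nop56 share part of the 333 exon bases that it has in common with other genes. Mybbp1a shares 131 exon bases with Spns2 on the other strand.

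Of 16 tested genes that MYC is known to repress, Itga6 fell and 15 did not pass, where 3.80% of all genes were called. Before adjustment 2 had a limma p under 0.05, against 19.7% of all genes, and 5 lay above 0, against 51.3%. Their median log2 difference was -0.26, against 0.025 over all genes. Itga6, an integrin subunit through which stem cells bind laminin, had 372, 324, 400.2 and 402 normalised reads in libraries labelled Nupr1-/-, against 759, 817, 865 and 571 in WT. The groups did not overlap (log2 difference -0.99 ± 0.22, SE; limma adjusted p = 0.0198). It missed the threshold without library 1 or 2 labelled Nupr1-/- and without WT library 1 or 3 (adjusted p up to 0.0671, without library 2 labelled Nupr1-/-). With the GC trend removed it passed at an adjusted p of 0.0495, and with the replicate block added to that it did not (0.0864). Txnip, an inhibitor of glucose uptake that Mondo and MLX are known to induce, averaged 2228 ± 249 and 2810.0 ± 191 in WT (SD, n = 4 each; adjusted p = 0.227).

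**Figure D5:**
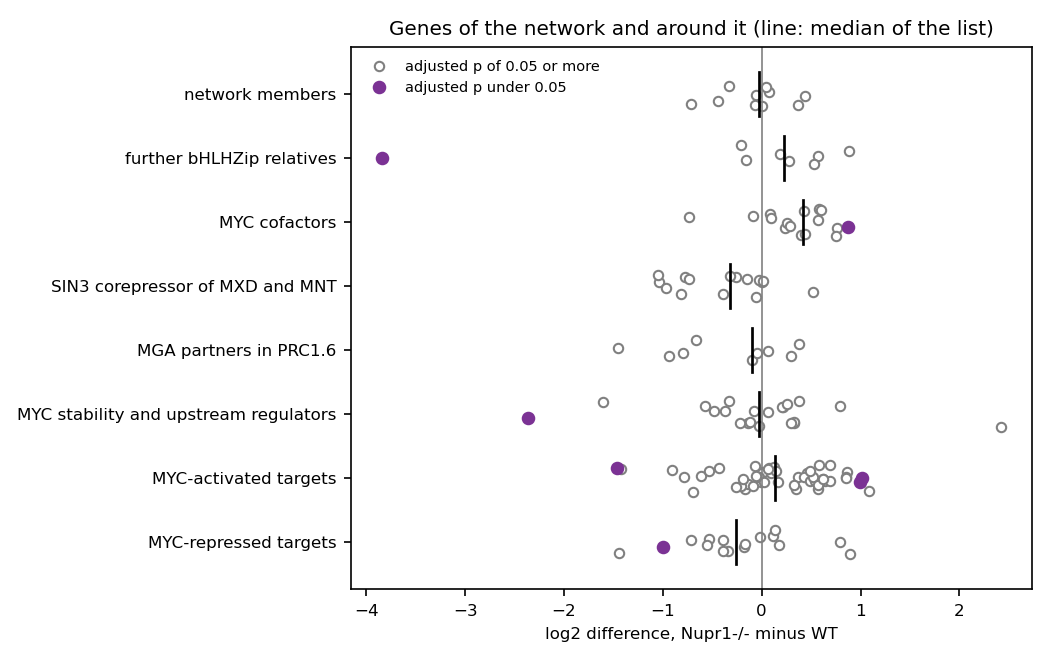
Log2 difference, Nupr1-/- minus WT, of each tested gene of the network and of 7 lists around it, with genes at a limma adjusted p under 0.05 filled and the median of each list as a line. The 10 network genes lie between -0.71 and 0.44 with none filled, the median of the MYC cofactors is 0.42 and that of the SIN3 list -0.32.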

How the data were processed

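HSC libraries of 8 mice (Nextera XT, per the labels' protocols) were analysed from 1 table. The submitters' processing notes name DESeq2, HISAT2, bcl2fastq, Subread and featureCounts, and build mm10, with no versions. The deposited signal is reads per gene divided by 1 size factor per library: in each library 100% of values were whole multiples of 1 step within 0.001. The 1 entry without a name (at most 0.00109% of a library) was left out. Normalised values replaced counts in the test, on log2(value + 1). Genes with at least 10 in at least 4 libraries (10989 kept, 865 left out) were compared with limma 3.58.1 in R 4.3.3 (trend, robust, two-sided, Benjamini-Hochberg over all tested genes). The step was checked on simulated counts with known changes. These were drawn with no GC trend between the groups and no outlying library, so the check does not cover those features. Positions, lengths and GC content came from GENCODE M21 (11717 of 11853 symbols matched).

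The network genes, lists, test, settings and alternatives were chosen with earlier results of these data known. Named were all network genes; the called genes of each list, up to 6, or its 2 genes of lowest p where under 2 were called; the 3 genes most like Myc; Nupr1 and Trp53. Alternatives were added values of 5 and 10, no filter, edgeR 4.0.16 (TMM and RLE), DESeq2 1.42.0, limma-voom with sample weights, a replicate block, removal of the GC and length trend by loess, and leaving out each library. The series' design text gives 4 mice per genotype. Intervals are unadjusted.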

Additional observations from a re-analysis of the deposited data

Results flagged for a closer look

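In groups of 4, a library was marked where its gap to the nearest other, as a share of the group's range, was above Dixon's 95% critical value. This held in 4 of 54 sets of 1 gene in 1 group, and chance marks about 5% of sets. Max in libraries labelled Nupr1-/- had a gap share of 0.835, with 415 normalised reads in library 3 and 209 to 244 in the other 3. Mga had 0.844, with 276 in library 1 labelled Nupr1-/- and 206 to 217 in the others. Srebf1 had 0.845, with 460.3 in library 3 labelled Nupr1-/- and 369 to 384 in the others. Hk2 had 0.895, with 102 in library 4 labelled Nupr1-/- and 88.4 to 89.8 in the others. These Hk2 values rest on only 61, 72, 100 and 110 reads in libraries 1 to 4. Their SD was 6.44 on a mean of 92.2, and the rule takes no account of counting error.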

How the results depend on the processing

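None of the 10 network genes was called in any of the 19 alternatives, where their lowest adjusted p was 0.0953 (Mycn, GC trend removed and WT library 2 left out). Genes near 0 changed sign. Myc was -0.069 and -0.068 with edgeR (TMM and RLE), -0.068 with DESeq2, -0.28 with the GC trend removed (with and without the replicate block) and -0.068 with WT library 2 also left out. In the same 3 GC settings Mxd1 was -0.094, -0.094 and -0.017, Mxi1 0.11, 0.11 and 0.40, Mlx -0.11, -0.11 and -0.061, and Mga 0.29, 0.29 and 0.60. Mga was 0.11 with limma-voom, and Srebf1 -0.034 with the GC trend removed, with and without the block. Leaving out 1 library gave -0.25 to 0.18 for Myc, -0.14 to 0.35 for Mxd1, -0.76 to 0.98 for Mxd3, -0.32 to 0.19 for Mxi1, -0.11 to 0.19 for Mlx and -0.24 to 0.21 for Mga.

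Over all genes 418 were called. The count was 764 with DESeq2, 651 with limma-voom, 277 with the replicate block, 28 with the GC trend removed (22 with the block) and 240 with WT library 2 also left out. It was 49 to 881 when 1 library was left out, with 881 without WT library 2. Of the genes around the network 7 were called, against 15 with DESeq2, 16 with limma-voom, 2 with the GC trend removed (1 with the block) and 1 to 17 when 1 library was left out. The cause of these shifts was not tested. Same-numbered libraries did not deviate together (correlations of -0.057 to 0.015). Differently numbered libraries were not compared, so these values do not settle whether the numbers pair the mice. Mxd3 had 3 reads in WT library 1, the lowest depth behind a value of a network gene.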
